A study of Mus musculus with 2 samples.

Results

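Replication-dependent histone genes make the bulk of the histones that package newly copied DNA. They were taken here as the genes of the deposited tables whose identifier, without its version, maps to an older symbol that starts with Hist and a digit. The rule found 67 genes among 43346 mouse genes: 54 in the Hist1 cluster on chromosome 13, 9 in Hist2 on chromosome 3, 3 in Hist3 on chromosome 11 and 1 in Hist4 on chromosome 6. By class there were 6 H1, 20 H2A, 16 H2B, 12 H3 and 13 H4 genes, of which 64 are annotated as protein coding and 3 as pseudogenes. The symbols Hist1h2bh, Hist1h2bm and Hist2h2bb, which fit the rule by name, were not analysed here. Polyadenylated RNA was sequenced from both ends of the fragments in G1E-ER4 cells. This immortalized erythroid line from mouse has no working Gata1 gene of its own and expresses a fusion of GATA1 with the estrogen receptor's hormone-binding domain. Both libraries form 1 group, in which 17beta-estradiol was given at 10 nM over 24 h, and are named biological replicates 1 and 2. Both point to the same biosample, so their differences may be technical, and untreated cells were not analysed here.

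H2A, H2B, H3 and H4 form the protein core around which DNA is wound, and H1 binds the linker between cores. Their replication-dependent genes are short, mostly lack introns, lie in clusters and are expressed mainly in S phase. Their messenger RNA usually ends in a conserved stem-loop, which is cut by a machinery that includes the U7 small nuclear RNA, and carries no poly(A) tail. Levels in polyadenylated RNA, as measured here, therefore need not follow those of total histone RNA. In a bulk sample, fewer cells in S phase and less RNA per cell cannot be told apart.

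The 3′ end of the annotated transcripts was read first, because it is the feature that sets this family apart. A script searched the 200 bases after the stop codon of each GENCODE M21 transcript for 6 paired bases that start with GG and end in a T-A pair, closed by a loop of 4. It found the stem-loop in 44 of the 64 members with an annotated stop codon (68.8%), against 72 of 21674 protein coding genes (0.332%). The 72 include the 44 members, and the histone genes H2afx, Hist1h2bh and Hist1h2bm are among the others. In the members the stem-loop began between 22 and 59 bases after the stop codon, with a median of 32.5. The following stretches, in 5′ to 3′ order and on the mm10 assembly, show the 3 highest H2A members that hold it, the highest holder in each other class and 3 examples of the rarer forms. Capitals mark the stem-loop.
Hist1h2ad, chr13:23574885-23574914, plus strand: taaaaacaaaGGCTCTTTTCAGAGCCatcc
Hist1h2ap, chr13:21833026-21833054, minus strand: aaaaaaaaaaGGCTCTTTTCAGAGCCatc
Hist1h2ao, chr13:21810888-21810917, plus strand: aaaaaaaaaaGGCTCTTTTCAGAGCCatcc
Hist1h1c, chr13:23739502-23739531, plus strand: caatccaaaaGGCTCTTTTCAGAGCCacca
Hist1h2bg, chr13:23571833-23571862, plus strand: ctaacccaaaGGCTCTTTTCAGAGCCaccc
Hist2h3c2, chr3:96238481-96238510, minus strand: tccccacaaaGGCTCTTTTCAGAGCCacca
Hist1h4d, chr13:23581940-23581969, plus strand: aaaaaccaaaGGCCCTTTTCAGGGCCacta
Hist1h4a, chr13:23760796-23760825, minus strand: tctaaccaaaGGCCCTTCTCAGGGCCgccc
Hist1h4b, chr13:23757356-23757385, plus strand: tgttacaaaaGGTCCTTTTCAGGACCactc
Hist1h3g, chr13:23535879-23535908, plus strand: ccactttaaaGGCTCTTCTTAGAGCCaccc
The form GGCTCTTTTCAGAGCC was held by 24 members, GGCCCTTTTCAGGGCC by 7 and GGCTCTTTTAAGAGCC by 6, and 5 other forms by 1 or 2 members each. Of the members without a stem-loop, 14 have a coding model that stops fewer than 16 bases after the stop codon, so the annotation leaves no room for one. Hist1h2af, Hist1h2ah and Hist1h3h are among these.

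Together the 67 genes summed to 39353 TPM (transcripts-per-million, corrected for transcript length) in replicate 1 and 42338.5 TPM in replicate 2. This is 4.08 ± 0.211% of all TPM (SD, n = 2). Replicate 1 held 70451042 estimated counts and replicate 2 held 13841487, a 5.09-fold difference in depth. The members took 1.225% of the counts of replicate 1 (95% Wilson interval 1.222 to 1.228%) and 1.140% of those of replicate 2 (1.134 to 1.145%). A gene with 0 counts could still hold up to 3 counts, which is 0.0426 CPM (counts-per-million) at the depth of replicate 1 and 0.217 CPM at that of replicate 2. Intervals and limits cover counting error only.

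A minimum of 1 TPM in both libraries was reached by 52 members. Among all genes measured the share was 17.2%, and 33.1% among the protein coding ones. Another 5 members (Hist1h4n, Hist3h2a, Hist2h2aa1, Hist1h2bn and Hist1h2br) reached it in replicate 1 and were listed at 0 in replicate 2. The remaining 10 reached it in neither library. Hist1h2aa, Hist1h2ba, Hist2h3c1 and the pseudogene Hist3h2bb-ps had 0 counts in both. Detection by class was 4 of 6 for H1, 16 of 20 for H2A, 9 of 16 for H2B, 11 of 12 for H3 and 12 of 13 for H4.

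H2A genes carried nearly all of the signal. Their sum was 38477 TPM in replicate 1 and 40167.5 TPM in replicate 2, which is 96.3 ± 2.05% of the members' TPM. The other classes lay far lower in both libraries. H4 genes summed to 263 and 864 TPM, H3 genes to 270.4 and 822.5 TPM, and H2B genes to 211 and 344 TPM in replicates 1 and 2. The linker histone genes summed to 131 and 141 TPM. Per library the H2A sum was 183-fold and 117-fold above the H2B sum, while H3 stood at 1.03 and 0.952 times H4.

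**Figure D1:**
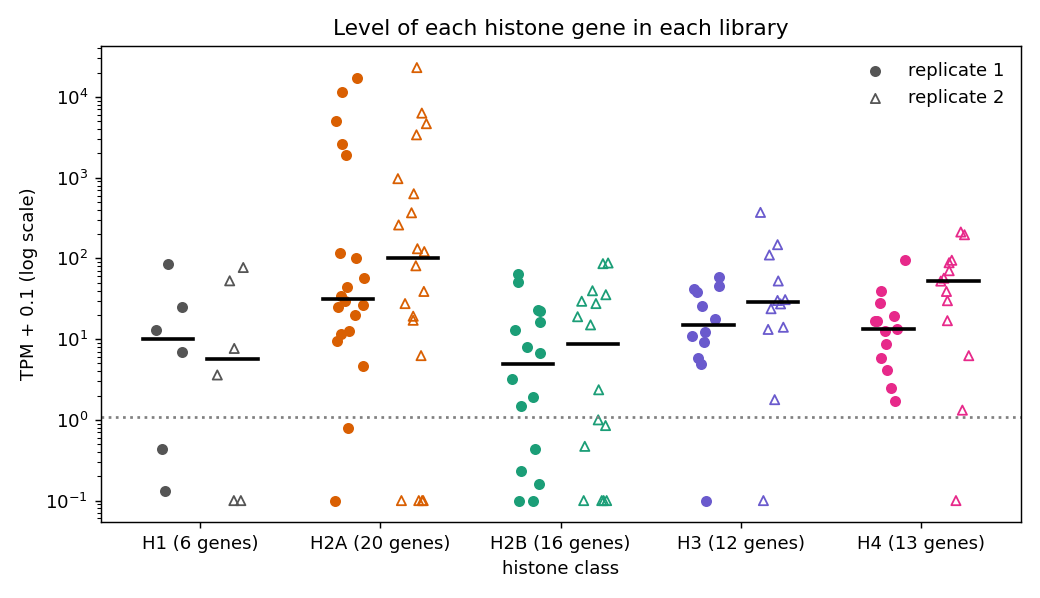
TPM + 0.1 on a log scale for each of the 67 genes by class, with replicate 1 as filled circles and replicate 2 as open triangles; black bars are medians, the dotted line marks the 1 TPM minimum and genes listed at 0 sit at the bottom. 5 H2A genes are the highest in both libraries, with a wide gap below them in replicate 1 but not in replicate 2, where Hist1h2ah is at 972.5 TPM and Hist1h2aj at 632 TPM. The median of the H2A genes is 31.7 TPM in replicate 1 and 101 TPM in replicate 2.

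The H2A excess rested on 5 genes of Hist1, singled out after their values were seen: Hist1h2ad, Hist1h2ap, Hist1h2ao, Hist1h2af and Hist1h2ah. All 5 encode canonical H2A from a single exon. They held 96.5% of the members' TPM in replicate 1 and 90.9% in replicate 2, and their mean levels ran from 12851 TPM down to 3028 TPM. The next member by mean, the pseudogene Hist1h2aj, had 331 TPM, but in replicate 2 it came close to Hist1h2ah, with 632 against 972.5 TPM. The sum of the 5 was 37984 TPM in replicate 1 and 38465.5 TPM in replicate 2. Its distribution over the genes differed between the libraries. Hist1h2ap (chromosome 13, 21833026 to 21833507, minus strand) reached 17016 TPM in replicate 1 against 6311 TPM in replicate 2 and was the highest member in replicate 1. Hist1h2ad (chromosome 13, 23574381 to 23574952, plus strand) had 2585 and 23117 TPM, and was the highest in replicate 2. Its mean of 12851 ± 14518 TPM (SD, n = 2) therefore does not set it apart from Hist1h2ap at 11664 ± 7570 TPM. Hist1h2ao had 11403 and 3397 TPM, Hist1h2af 1896 and 4668 TPM, and Hist1h2ah 5084 and 972.5 TPM. Hist1h2ap, Hist1h2ao and Hist1h2ah were thus high in replicate 1, and Hist1h2ad and Hist1h2af in replicate 2.

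Over 384 coding bases compared, these 5 genes differ at 7 positions, and Hist1h2ap and Hist1h2ao are identical. The least alike pair, Hist1h2af and Hist1h2ah, shared 98.4% of these bases. The coding models differ slightly in length, and bases outside the 384 were not compared. The first 60 coding bases are printed because they hold 3 of the 7 differing positions (capitals).
Hist1h2ad, chr13:23574471-23574530, plus strand: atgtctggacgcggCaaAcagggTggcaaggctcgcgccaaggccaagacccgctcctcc
Hist1h2ap, chr13:21833416-21833475, minus strand: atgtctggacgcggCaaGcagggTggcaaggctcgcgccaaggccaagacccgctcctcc
Hist1h2ao, chr13:21810467-21810526, plus strand: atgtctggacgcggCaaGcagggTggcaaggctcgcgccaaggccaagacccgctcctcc
Hist1h2af, chr13:23533911-23533970, plus strand: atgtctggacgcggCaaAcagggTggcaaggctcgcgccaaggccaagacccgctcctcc
Hist1h2ah, chr13:22035493-22035552, minus strand: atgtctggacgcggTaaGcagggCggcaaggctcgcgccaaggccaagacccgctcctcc
Hist1h2ap shared 93.1% of its 50-base words with Hist1h2ao, so the split of reads between these copies depends on how shared reads were assigned. Their sum, 28419 TPM in replicate 1 and 9708 TPM in replicate 2, does not depend on that split. Hist1h2ad shared 59.5% of its words with Hist1h2ah, its closest copy, and Hist1h2af shared 79.7% with Hist1h2ad. Words were counted on M21 models, and that of Hist1h2ad has 572 bases, against 463 in the model measured. The posterior SD that the deposited tables give for each count was 1.39% of the count for Hist1h2ad in replicate 1 and 0.560% in replicate 2. For Hist1h2ap it was 0.397% and 1.64%, for Hist1h2ao 0.593% and 3.03%, and for Hist1h2ah 0.835% and 10.3%. These spreads describe the estimate within 1 library, and the part of read assignment in the exchange between the libraries was not tested.

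A run of 12 A lies directly before the stem-loop in the models of Hist1h2ap and Hist1h2ao, as the stretches above show in part. This feature was noticed after the sequences were seen. Hist1h2ac was the third member with a run of at least 12 A, and its run of 15 starts 857 bases after the stop codon. Over all protein coding genes, 9.26% have such a run in an annotated transcript. Hist1h2ac had only 19.9 and 17.0 TPM. These levels rest on a model of 476 bases, against 2482 in M21, so the run may lie outside the model measured. The longest run in the Hist1h2ad model is 5, in Hist1h2af 3 and in Hist1h2ah 2, so high members are found with and without a run. The part of A runs in the levels was not tested.

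Without the 5 genes the other 62 members summed to 1369 and 3873 TPM in replicates 1 and 2, which is 0.137% and 0.387% of all TPM. H2A then held 36.1% and 43.9% of that sum, H4 19.2% and 22.3%, H3 19.7% and 21.2%, H2B 15.4% and 8.87%, and H1 9.59% and 3.64%. The ratio of H2A to H2B was 2.34 in replicate 1 and 4.95 in replicate 2. The ratio of H2A and H2B together to H3 and H4 together was 1.32 and 1.21.

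**Figure D2:**
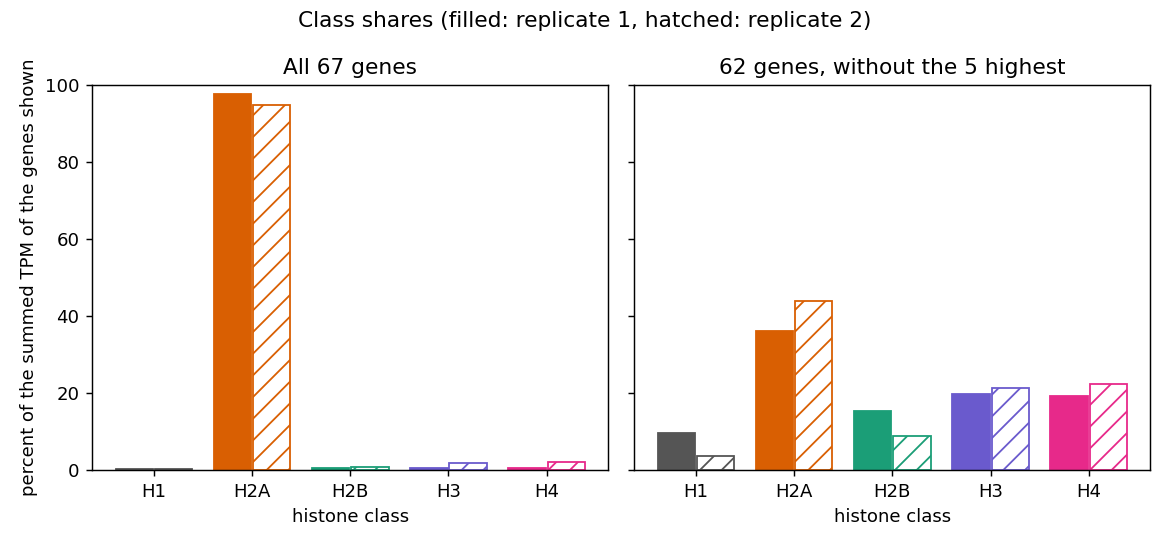
Percent of the summed TPM held by each class in replicate 1 (filled) and replicate 2 (hatched), for all 67 genes on the left and for the 62 that remain without the 5 highest on the right. H2A holds 97.8% and 94.9% on the left, against 36.1% and 43.9% on the right.

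Among the other H2A genes Hist1h2aj, annotated as an unprocessed pseudogene, went from 29.6 TPM in replicate 1 to 632 TPM in replicate 2. Hist1h2an had 24.7 and 367 TPM, and Hist1h2ai had 117.6 and 260 TPM. These genes were higher in replicate 2, and each shared over 80% of its words with other genes. In Hist2 the near-identical copies Hist2h2aa1 and Hist2h2aa2 summed to 62.02 and 27.5 TPM. The annotation also places a gene model of type miRNA on the opposite strand of 19 of the 20 H2A members, and of 0 members of the other classes. Those models were not analysed here, and since the use of strand is not stated, reads from the opposite strand could not be set apart.

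H2B genes were low throughout. Hist1h2bg (chromosome 13, 23571396 to 23572013, plus strand) led them with a mean of 68.3 ± 25.1 TPM, from 50.5 TPM in replicate 1 and 86.0 TPM in replicate 2. Hist1h2bj had 22.8 and 87.7 TPM, and Hist1h2bc had 64.6 and 29.4 TPM. The order of these 3 is not set beyond their spread, since Hist1h2bc was the highest in replicate 1 and the lowest of them in replicate 2. Hist1h2bp was the only member of at least 10 mean TPM with more than 1 annotated transcript. Its single-exon transcript, which holds the stem-loop, made up 93.2% of the gene's level in replicate 1 and 100% in replicate 2. The spliced one, which lacks the stem-loop and ends with a polyadenylation signal, had 0.450 TPM and 0 TPM. Hist2h2be, which shares none of its words with another gene, had 0.340 and 0.750 TPM.

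The H3 genes were led by Hist1h3h (chromosome 13, 21717659 to 21718069, plus strand), with 45.3 TPM in replicate 1 and 371.5 TPM in replicate 2. Its near copy Hist1h3i had 38.7 and 27.2 TPM, and the posterior SD of the Hist1h3i count was 46.9% in replicate 2. Hist2h3b had 41.6 and 148 TPM and was the highest of Hist2. Hist2h3c2 had 58.2 and 110 TPM. Hist1h3h, Hist2h3b and Hist2h3c2, the leading H3 genes, were higher in replicate 2, and the ranges of their levels overlapped.

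The H4 genes encode 1 protein from 12 distinct coding sequences in 13 genes. Hist1h4d (chromosome 13, 23581598 to 23582735, plus strand) stood at 95.1 TPM in replicate 1 and at 196 TPM in replicate 2. Hist1h4k had 28.2 and 212 TPM, and Hist1h4a had 38.9 and 88.3 TPM. Hist4h4, the lone gene of Hist4 (chromosome 6, 136801553 to 136804415, minus strand), had 1.59 and 56.7 TPM from 299 and 1743 counts. Only 7.07% of its words occur in another gene, and the posterior SD of its count is 0 in both libraries.

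Among the linker histone genes, Hist1h1c (chromosome 13, 23738808 to 23740367, plus strand) made most of the H1 sum with a mean of 81.6 ± 6.39 TPM, from 86.1 TPM in replicate 1 and 77.0 TPM in replicate 2. Its log2 ratio between the libraries was 0.02. Hist1h1e had 25.1 and 52.7 TPM and Hist1h1d had 12.9 and 7.57 TPM. The testis gene Hist1h1t had 1 count in replicate 1 and 0 in replicate 2. The testis genes Hist1h2aa and Hist1h2ba had none, and 5 of 5 germ cell markers, among them Ddx4 and Prm1, also had 0 counts.

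By place, Hist1 held 99.3 ± 0.254% of the members' TPM, Hist2 0.579 ± 0.178%, Hist3 0.0125 ± 0.0165% and Hist4 0.0690 ± 0.0919%. Hist1 falls into blocks separated by over 200000 bases. The first (chr13:21715763-22043676, 23 members) summed to 34030 TPM in replicate 1 and 12985 TPM in replicate 2. The second (chr13:23531050-23934851, 30 members) summed to 5121 and 28979 TPM. The sums of the blocks thus traded places between the libraries, with Hist1h2ap and Hist1h2ao in the first and Hist1h2ad and Hist1h2af in the second. Most members did not take part in this exchange. Over members with a mean CPM of at least 1, the median log2 ratio of replicate 1 to replicate 2 was negative in both blocks. It was -1.06 for 20 members of the first block and -1.23 for 26 of the second. The processed pseudogene Hist1h2al lies apart and had 12.6 and 19.1 TPM. In Hist3, Hist3h2a had 1292 counts in replicate 1 and 0 in replicate 2. It overlaps Trim17 on the same strand, a gene with 12.9 counts in replicate 1 and 125 in replicate 2, so the split of reads between them is uncertain.

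The libraries were set side by side with a two-sided exact binomial test on rounded counts, scaled by TMM, and a gene was called at a Benjamini-Hochberg adjusted p under 0.05 and at least 2-fold. The test compares these 2 libraries and not conditions. The test took genes whose CPM averaged 1 or more, among them 55 members. Of these, 6 were called higher in replicate 1, where the share over all 8884 genes tested was 30.0%, and 30 were called higher in replicate 2, where it was 17.9%. The median log2 ratio of replicate 1 to replicate 2 was -1.08 over the members tested and 0.20 over all genes tested. Most histone genes tested thus stood lower in replicate 1, while the median of all genes tested lay slightly toward replicate 1. That median depended on the minimum level. At a mean CPM of at least 10 it was 0.01, and that of the members was -1.39. With no filter it was 0.42, with 20.2% and 19.9% of all genes called higher in replicates 1 and 2. By class, the calls higher in replicate 2 numbered 10 of 13 for H4, 6 of 11 for H3, 6 of 10 for H2B, 7 of 17 for H2A and 1 of 4 for H1. Leaving out members that share over 80% of their words with other genes, a check added after seeing the data, left 43 members with 2 called higher in replicate 1 and 24 in replicate 2.

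The members with the largest ratios (mean CPM of at least 10) toward replicate 2 were Hist4h4, with a log2 ratio of -5.28, Hist1h2aj with -4.68 and Hist1h2an with -4.14. Toward replicate 1 they were Hist1h2ah with 2.14, Hist1h2ao with 1.53 and Hist1h2ap with 1.22. The sum of the 5 highest H2A genes had a log2 ratio of -0.21, although its members ranged from -3.38 for Hist1h2ad to 2.14 for Hist1h2ah. Of the members at 0 in replicate 2, Hist3h2a was at least 64.2-fold higher in replicate 1 and Hist1h4n at least 18.2-fold, with 3 counts in replicate 2 as the limit. The posterior mean counts there were 16.8 ± 16.7 for Hist3h2a and 7.59 ± 8.09 for Hist1h4n (± posterior SD), above that limit, so these folds rest on the maximum likelihood counts. Hist1h4n and Hist1h4m share 85.6% and 89.8% of their words with other genes. Their sum was 24.8 TPM in replicate 1 and 70.3 TPM in replicate 2, higher in replicate 2 where Hist1h4n itself was listed at 0.

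**Figure D3:**
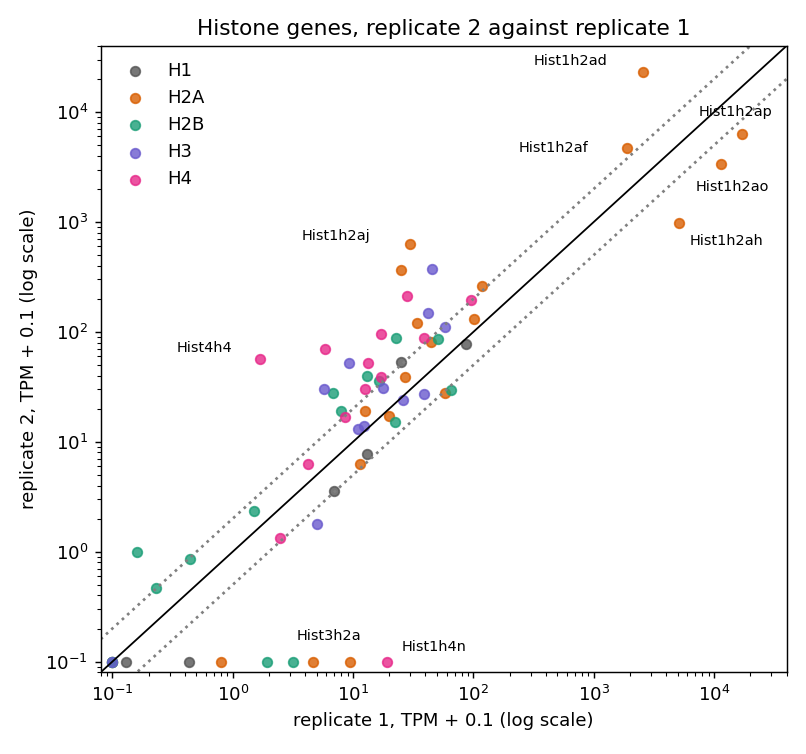
TPM + 0.1 in replicate 2 against replicate 1 for the 67 genes, both axes on a log scale, coloured by class; the solid line marks equal levels and the dotted lines a 2-fold difference. Most genes between 1 and 1000 TPM lie above the line, and Hist1h2ap, Hist1h2ao and Hist1h2ah lie below it.

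Sharing of sequence was the rule in this family. Over 50% of the 50-base words occurred in another gene's transcripts for 33 of 67 members, and over 80% for 17. Words were counted on GENCODE M21 transcripts, while the levels rest on M4. The length of 22 member transcripts differs between these releases, so the shares may differ from those of the models measured. The median share was 73.2% for H2A, 61.98% for H3, 46.9% for H2B, 39.5% for H4 and 1.13% for H1. A posterior SD above 0 was given for 49 of the 52 detected members in each library, against 14.5% and 10.9% of all detected genes in replicates 1 and 2. Its median was 2.04% of the count in replicate 1 and 4.47% in replicate 2. It exceeded the square root of the count, the size of counting error, for 12 members in replicate 1 and 10 in replicate 2. The highest value was 51.9%, for Hist1h4m in replicate 1.

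**Figure D4:**
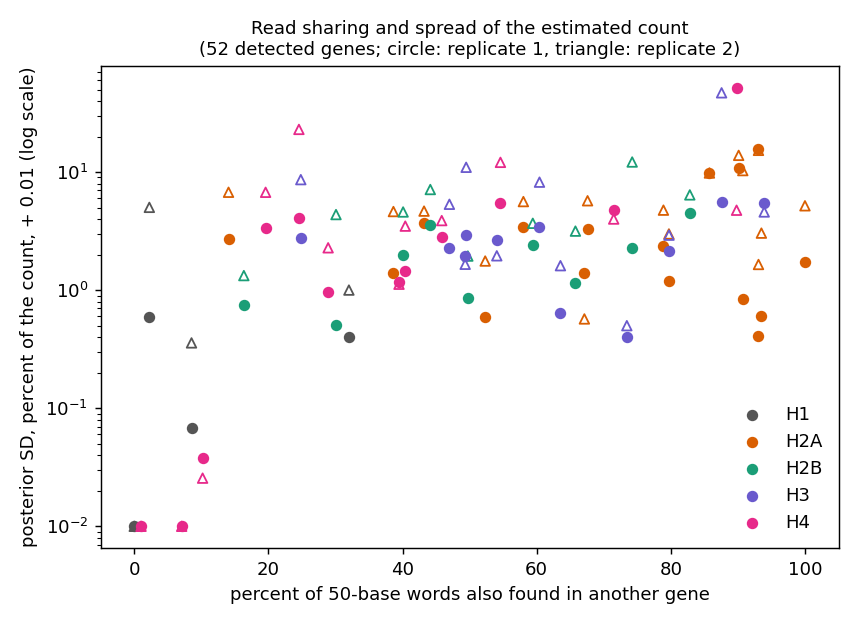
Posterior SD of each count as a percent of that count, + 0.01 on a log scale, against the percent of 50-base words found in another gene, for the 52 detected genes (circle: replicate 1, triangle: replicate 2). Hist4h4, with 7.07% of words shared, sits at the bottom, Hist1h1d reaches 5.01% in replicate 2 with 2.25% of words shared, and the highest value is that of Hist1h4m at 51.9%. Words were counted on M21 models, and that of Hist1h1d has 7425 bases, against 744 in the model measured.

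Polyadenylation signals were looked for because they mark transcripts that can gain a tail. AATAAA or ATTAAA stood in the last 50 bases of a transcript for 17 of 67 members (25.4%), against 77.7% of protein coding genes. The ends are those of GENCODE M21, while the levels rest on M4. The length of 22 member transcripts differs between these releases, so signal and level may belong to different ends. The members with a signal had a median of 4.70 mean TPM, and the 50 without one had 28.6. Leaving out H2A genes, these medians were 1.83 TPM for 15 members and 24.5 TPM for 32. Hist1h1c, which has both a stem-loop and a signal, was the highest of the members with a signal at 81.6 TPM. The 44 members with an annotated stem-loop had a median of 25.4 TPM and the 23 without an annotated one had 15.9. Leaving out H2A genes, these medians were 24.2 TPM for 33 members and 3.36 TPM for 14. The 23 include the 3 pseudogenes, which have no annotated stop codon and were not searched, and the 14 coding models too short to hold one. Most of the 23 were thus not shown to lack a stem-loop.

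The position of the annotated end was set against the level of each transcript. Models of equal length in GENCODE M4, on which the tables were made, and M21 were used. Transcripts ending within 50 bases of the stem-loop held 72.9% of the members' TPM in replicate 1 and 24.1% in replicate 2, mostly through Hist1h2ap and Hist1h2ao. The 12 transcripts that end further past it held 0.632% and 0.932%, a mean of 0.782%. This share rests on the distance chosen: with ends over 10 bases past the stem-loop it was 20.1%, since it then takes in Hist1h2ao, whose model ends 31 bases past it. Transcripts with no annotated stem-loop held 18.9% and 18.5%. The 22 transcripts whose length differs between the releases, Hist1h2ad among them, held 7.63% and 56.5%, and were not placed.

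Many H2A and H2B genes share a start region. All 13 pairs of members on opposite strands with start sites within 1000 bases pointed apart were an H2A with an H2B gene, and the H2A gene was the higher one in 10 pairs in replicate 1 and 9 in replicate 2. Both genes of a pair reached 10 mean TPM in 7 pairs. Hist1h2ad stood 159-fold in replicate 1 and 653-fold in replicate 2 above its partner Hist1h2bf, whose TPM was 16.3 and 35.4. Hist1h2ah stood 229-fold and 65.2-fold above Hist1h2bk, with 22.2 and 14.9 TPM. Hist1h2ai stood 15.1-fold and 13.8-fold above Hist1h2bl, with 7.78 and 18.9 TPM. Hist1h2an stood 3.70-fold and 13.4-fold above Hist1h2bp, with 6.68 and 27.5 TPM. Apart from the Hist1h2ai pair, the size of these excesses thus differed by over 2 times between the libraries, while their direction did not. In other pairs the levels were close. Hist1h2ae had 33.8 and 121 TPM beside the values of Hist1h2bg, a 1.14-fold difference in means. Hist1h2ag had 26.7 and 38.9 TPM, 1.69-fold below Hist1h2bj in mean, and Hist1h2ac stood 2.54-fold below Hist1h2bc. In the pairs of Hist1h2ae and Hist1h2ag the values of both genes overlapped, while Hist1h2ac was below Hist1h2bc in both libraries.

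Promoters of 59 members were matched in RefSeq sequence (GRCm38.p6, 250 bases before to 50 after the start). The octamer ATTTGCAT, bound by POU factors, was found on either strand in 5 of 13 H2B promoters (38.5%) and 7 of 18 H2A promoters (38.9%), in none of the H1, H3 or H4 promoters, and in 1.74% of all 32851 promoters. CCAAT, the NF-Y motif, was in every H1, H2A, H2B and H3 promoter matched, in 3 of 12 H4 promoters and in 37.4% of all. TATAAA was in 35 of the 59 and in 13.6% of all. Start sites of the head-to-head pairs lie 173 to 306 bases apart, so 1 site can count for both genes of a pair. The shares of H2A and H2B promoters are therefore not independent. None of these motifs contains another. The 5 H2B genes with the octamer had a median of 18.6 mean TPM (range 0 to 68.3), and the 8 without it 7.43 (range 0.250 to 55.2), so the groups overlapped. The stretches between the start sites of 3 pairs are shown on the plus strand, because they hold the 2 highest members and the pair with the closest levels; capitals mark the 3 motifs on either strand.
Hist1h2bf and Hist1h2ad, chr13:23574197-23574380: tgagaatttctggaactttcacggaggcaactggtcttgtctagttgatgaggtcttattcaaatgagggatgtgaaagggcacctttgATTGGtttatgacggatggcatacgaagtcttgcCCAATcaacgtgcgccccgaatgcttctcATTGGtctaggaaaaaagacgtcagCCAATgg
Hist1h2ap and Hist1h2br, chr13:21833508-21833742: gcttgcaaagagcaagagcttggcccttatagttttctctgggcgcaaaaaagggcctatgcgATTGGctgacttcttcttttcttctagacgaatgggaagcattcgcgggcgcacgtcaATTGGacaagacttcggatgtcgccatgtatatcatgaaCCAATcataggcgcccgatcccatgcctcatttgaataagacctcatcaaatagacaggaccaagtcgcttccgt
Hist1h2ae and Hist1h2bg, chr13:23571221-23571395: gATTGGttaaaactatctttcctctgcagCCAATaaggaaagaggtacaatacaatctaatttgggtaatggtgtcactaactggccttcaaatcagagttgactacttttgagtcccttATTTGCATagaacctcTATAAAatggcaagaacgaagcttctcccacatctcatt
The stretch between Hist1h2bf and Hist1h2ad holds 4 CCAAT motifs and neither of the others. That between Hist1h2ae and Hist1h2bg holds 1 octamer, 1 TATAAA and 2 CCAAT motifs. Hist1h2ap at 11664 mean TPM and Hist1h2br at 0.920 share a stretch with 3 CCAAT motifs. Hist1h2br shares 88.7% of its words with other genes and was listed at 0 in replicate 2, so the size of this contrast is uncertain.

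Replication-independent histone genes, which have tailed messages, were set beside the members of the same class. The 3 H3 variants measured took 88.2% of all H3 TPM in replicate 1 and 58.7% in replicate 2, the reverse of H2A, where 6 variants took 7.87% and 7.44%. Without the 5 highest H2A members the variants held 87.0% and 65.5% of H2A TPM. H2afz had 2529 and 940 TPM, and H2afx, whose message also carries the stem-loop, had 454 and 2159 TPM. H1 was made almost wholly by members, as both H1 variants of the list summed to 0.0700 and 0.290 TPM.

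Genes of the histone message pathway were counted by the same calls, of which 30.0% over all genes tested were higher in replicate 1 and 17.9% in replicate 2. Of 26 genes for 3′ end processing 20 were detected, led by Snrpb at 317.5 and 506 TPM, and the U7 RNA gene Rnu7 was at 0 counts. As polyadenylated RNA was sequenced, this 0 does not show that the U7 RNA was absent. Of the 22 tested, 11 were higher in replicate 1 and 2 in replicate 2, with a median log2 ratio of 1.10. Slbp, which binds the stem-loop, had 164 and 48.3 TPM, and the U7 particle subunit Lsm11 had 11.2 and 120 TPM; both are named for their role, after their values were seen. Export, translation and decay genes were detected in 17 of 19 cases (7 of 19 tested higher in replicate 1, 2 in replicate 2, median 0.39), led by Lsm4 with 415 and 159 TPM. Of 20 genes for histone gene transcription 16 were detected (6 and 3 of 19 tested, median -0.04), with cyclin A gene Ccna2 highest at 556.5 and 546 TPM and Npat, the coactivator of the clusters, among the lowest at 0.760 and 1.24 TPM. Chaperone genes were detected in 26 of 28 cases (14 and 3 of 28 tested, median 1.00), led by Anp32e with 471 and 34.5 TPM. Of the 28 S phase genes 26 were detected (17 and 2 of 28 tested, median 1.15), led by Rrm2 with 434 and 145 TPM. For poly(A) addition 9 of 10 were detected (4 and 2 of 10 tested, median 0.21), led by Pabpc1 with 1159 and 2663 TPM. In the transcription and the export and decay lists, the shares called higher in replicate 1 lay near that of all genes. More S phase genes were called higher in replicate 1 and more histone members in replicate 2, and the lists were not tested against each other.

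The line's identity was checked on markers. Of 12 erythroid genes 11 were detected, summing to 202574 and 92536 TPM in replicates 1 and 2. Of 5 megakaryocyte genes 2 were detected, Itga2b and Gp9, with a sum of 5.35 and 7.60 TPM, and Pf4 and Ppbp had 0 counts. The 6 myeloid genes summed to 0.0800 and 0.190 TPM, the 4 mast cell genes to 0.750 and 0.780 TPM, and the 4 lymphoid genes to 0.230 and 0.670 TPM, with none detected.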

How the data were processed

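The authors deposited gene and transcript tables on mm10 with GENCODE M4, per the labels and the text beside the tables; for aligner, quantifier and use of strand the sources used here give nothing. The deposited tables hold estimated counts (maximum likelihood and posterior mean), TPM corrected for effective length, and the percent of a gene's level that each transcript makes up. Symbols, positions and sequences came from GENCODE M21. The members and lists were chosen with earlier results of these data known. Non-gene entries were left out. Levels are means and SDs of 2 TPM values. Counts were rounded, scaled by TMM (edgeR 4.0.16; factors 1.15 and 0.871) and tested with scipy 1.17.1 (prior count 0.5 for log2 ratios), a step tested on simulated data. Ratios of class sums used a pseudocount of 0.1 TPM. Named members are the 3 highest of each class, the highest of each cluster, the 3 largest folds each way, testis genes, those with several transcripts or in pairs with both genes at 10 TPM, and the highest and lowest of each list (histone message processing, export and decay, transcription, chaperones, variants, poly(A) addition, S phase, cell markers); any other member named with a value (such as Hist1h2af, near-identical copies, members at 0 in 1 library and holders of rarer stem-loop forms) was chosen after its values or sequence were seen. Alternatives were posterior means, no length correction, full length, other minima and scalings (DESeq2 1.42.0 factors, total counts), and each library alone.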

Additional observations from a re-analysis of the deposited data

How the results depend on the processing

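With 2 libraries in 1 group no difference between conditions could be tested, and values of near-identical copies depend on how shared reads were assigned. No paired analysis was possible because the labels give 1 group. Leaving out the leading member, Hist1h2ad, gave the members 2.80% of all TPM, with 0.545% of their TPM in H1, 93.2% in H2A, 1.18% in H2B, 2.51% in H3 and 2.61% in H4, 98.8% in Hist1 and 1.02% in Hist2, and log2 ratios of 6.52 (H2A over H2B) and 7.60 (core over H1). Leaving out the 5 highest, chosen after seeing the data, gave 0.262% of all TPM, with 6.61% in H1, 40.0% in H2A, 12.1% in H2B, 20.5% in H3 and 20.8% in H4, and log2 ratios of 1.77 (H2A over H2B), 0.34 (H2A and H2B over H3 and H4) and 3.98 (core over H1). Counts without length correction gave the members 1.18% of the total, with 1.12% in H1, 98.3% in Hist1, 1.02% in Hist2, 0.0757% in Hist3 and 0.570% in Hist4, and log2 ratios of 0.20 (H3 over H4) and 6.46 (core over H1). Counts over full length gave 3.45% of all, 0.418% in H1, and log2 ratios of 0.11 (H3 over H4) and 7.89 (core over H1), which was 8.21 with a pseudocount of 1. Members called higher in replicate 1 numbered 11 with total counts and 2 without the most shared members. At a mean CPM of 10, 3 of 30 members tested were higher in replicate 1 and 21 in replicate 2. Of all genes tested, 23.7% and 20.2% were called each way at that minimum. A 1.5-fold minimum gave 11 and 36 members, with 39.6% and 27.4% of all genes called each way. Total counts, under which the median log2 ratio of all genes was 0.61, gave 19 higher in replicate 2, with 40.1% and 10.6% of all genes called each way. DESeq2 size factors gave 6 and 31, with 28.4% and 19.5% of all genes called each way. Posterior mean TPM gave 0.334% in H1 and a log2 ratio of core over H1 of 8.22. Each library alone gave 3.94 to 4.23% of all TPM, 94.9 to 97.8% in H2A, 0.687 to 1.94% in H3, 0.669 to 2.04% in H4, and 52 to 57 members detected. Of 31 named members 28 moved by less than 1 SD with posterior means; Hist1h1t, Hist1h2aa and Hist1h2ba, at or near 0, moved to 0.0950, 0.190 and 0.505 TPM.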
